A study of Mus musculus with 4 samples.

Results

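Branched-chain amino acid catabolism was followed through 10 genes of the leucine, isoleucine and valine route, *Bcat1*, *Bcat2*, *Bckdha*, *Bckdhb*, *Dbt*, *Bckdk*, *Ivd*, *Mccc1*, *Pcca* and *Hibch*, chosen by symbol. All 10 were found among the 19030 genes listed, and 9 had a mean expression of at least 1 FPKM (fragments scaled by transcript length and by the mapped fragments of the library), the level required for testing. The tissue was the inguinal depot of white fat (ingWAT), which lies under the skin, from C57BL/6 mice aged 3 months, and all mice had been exposed to cold (4°C). The 2 cKO libraries came from mice labelled Oct3 deficient, in which the Adiponectin-Cre transgene, active in adipocytes, deletes a floxed segment of *Oct3* (*Slc22a3*, a transporter that takes up catecholamines), and the 2 Ctrl libraries came from mice labelled Control. Ctrl mice are described as littermates of the genotype *Oct3* fl/fl, in which both copies of *Oct3* are floxed. The methods describe the cold challenge in male mice. Neither the labels nor the methods state how many mice a library holds or that replicates are separate animals, so the p-values measure only the spread between these libraries, which may be technical. The deletion is limited to adipocytes, whereas the RNA came from the whole depot.

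Leucine, isoleucine and valine are first transaminated by the branched-chain aminotransferases, mitochondrial BCAT2 or cytosolic BCAT1. The resulting keto acids are oxidatively decarboxylated in mitochondria by the branched-chain keto acid dehydrogenase (BCKDH) complex, which is switched off by phosphorylation through BCKDK and on again by the phosphatase PPM1K. The acyl-CoA products are then degraded in separate branches to acetyl-CoA, acetoacetate or propionyl-CoA, and adipose tissue, brown fat in the cold in particular, is known as a site of this oxidation.

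The depth was not given in the sources used here and was estimated, from the smallest differences between values of short RNAs, as 17400000 to 18150000 reads per library. *Slc22a3*, the targeted gene, had 16.95 and 17.68 FPKM in Ctrl and 9.07 and 9.50 FPKM in cKO, lower in both cKO libraries (log2 fold change -0.83, SE 0.066, adjusted p = 0.000439, limma with Benjamini-Hochberg adjustment). The markers of white adipocytes that define the labelled tissue were abundant in every library (summed FPKM of 9 genes, 30768 to 32219 in Ctrl and 24423 to 24548 in cKO; 5 of 9 lower in cKO), and the 8 thermogenic adipocyte genes, which summed to 1596 to 1900 FPKM in Ctrl and 4318 to 5088 FPKM in cKO, were all higher in cKO. Markers of other cells differed too. The 13 skeletal muscle genes summed to 1581 to 2354 FPKM in Ctrl and 8.94 to 11.5 FPKM in cKO, with 10 of 10 tested lower. The 6 fibroblast progenitor genes summed to 1158 to 1355 FPKM in Ctrl and 717 to 741 FPKM in cKO, with 5 lower. B cell genes (6 of 6 tested higher in cKO), T cell genes (5 of 6) and neutrophil genes (4 of 4) went the other way, with summed values of 207 to 234, 81.7 to 85.7 and 12.2 to 12.4 FPKM in Ctrl and of 330 to 374, 113 to 150 and 27.0 to 27.8 FPKM in cKO. Of 6 macrophage genes (686 to 756 FPKM in Ctrl, 759 to 789 in cKO) 1 was higher and 3 were lower, and of 5 endothelial genes (175 FPKM in both Ctrl libraries, 152 to 158 in cKO) 2 were lower. Of the 6 epithelial genes (2.71 to 2.79 FPKM in Ctrl, 2.20 to 2.30 in cKO) *Krt14* was not listed. Only 1 of them was tested, and it did not pass the threshold. Of the 4 hepatocyte genes (24.96 and 24.53 FPKM in Ctrl, 11.65 and 15.13 in cKO) *Cps1* was not listed, and *Alb*, the only 1 tested, was lower.

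The members did not share a direction between the genotypes. *Bckdha* and *Pcca* were higher in cKO, *Bcat2* and *Ivd* were lower, and the other 5 tested members did not pass the threshold of an adjusted p under 0.05 (limma, two-sided, Benjamini-Hochberg over 12658 genes). Of all genes tested, 12.0% were higher and 13.8% lower, 25.8% in all, so the 2 higher and 2 lower members of 9 are read against a genome-wide change of that extent. The median log2 fold change of the 9 was 0.07, beside -0.0060 over all genes tested, and it was 0.12 without Ctrl replicate 2 and 0.04 without cKO replicate 1 (0.04 to 0.12 with each library left out in turn). Both cKO libraries lay above both Ctrl libraries for 5 of the 9 and below them for 2, together 7 of 9, beside 66.5% of all genes (31.9% above and 34.6% below). In these bulk samples, fewer cells of a type and less RNA per cell cannot be told apart. The part of the muscle, fibroblast and leukocyte differences above in the values of the members was not tested.

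**Figure D1:**
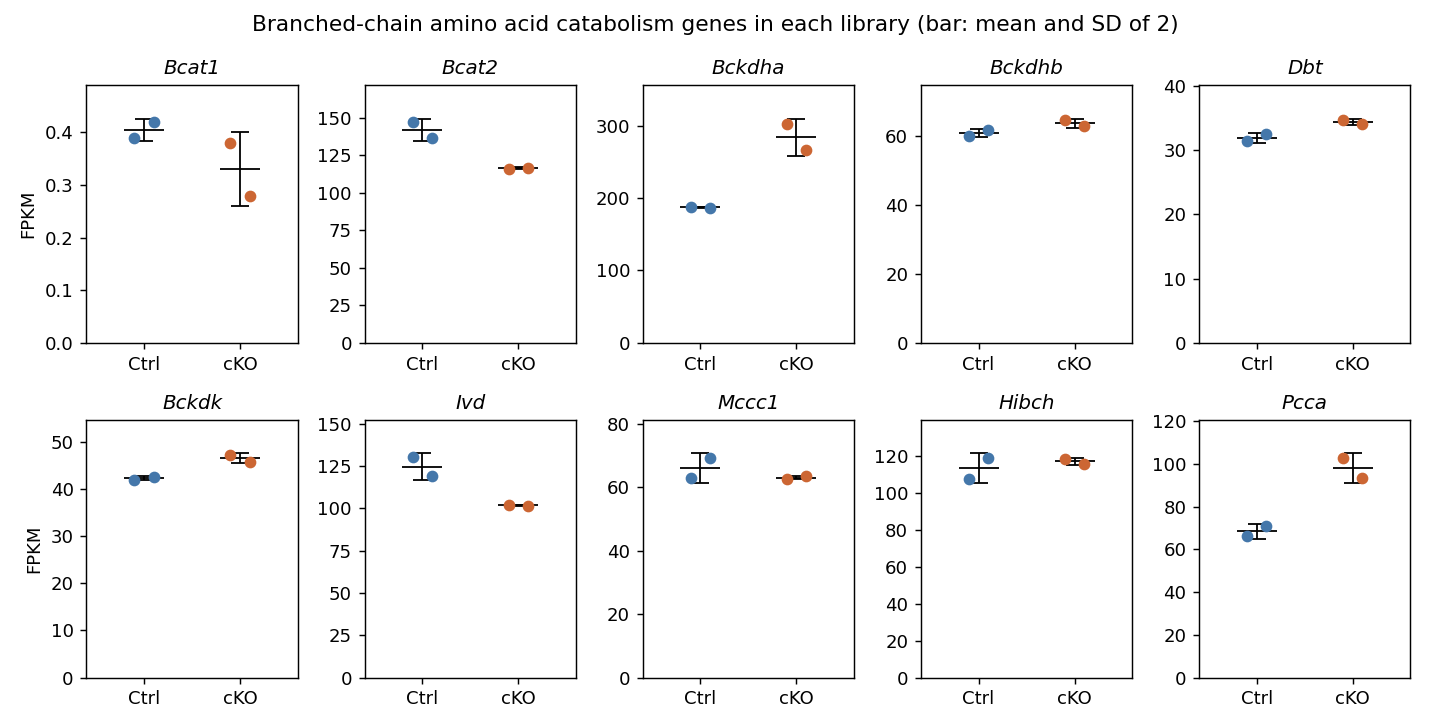
FPKM of each of the 10 genes in the 2 Ctrl (blue) and 2 cKO (orange) libraries, 1 linear panel from 0 per gene; points are libraries, and the bar with whiskers is their mean ± SD. *Bckdha* and *Pcca* sit higher in both cKO libraries and *Bcat2* and *Ivd* lower, *Bckdhb*, *Dbt* and *Bckdk* are separated by small steps, and *Mccc1* and *Hibch* overlap.

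Because FPKM is scaled by transcript length, the levels of different genes can be set in order within a library. In Ctrl the order ran from *Bckdha* (187 FPKM) through *Bcat2* (142), *Ivd* (125), *Hibch* (113), *Pcca* (68.4), *Mccc1* (66.1), *Bckdhb* (60.8), *Bckdk* (42.3) and *Dbt* (31.9) to *Bcat1* (0.405 FPKM), as means of 2 libraries. The ranges of *Ivd* and *Hibch* and those of *Pcca* and *Mccc1* overlapped, so these neighbours could not be ordered. In cKO *Bckdha* was again highest and *Bckdk*, *Dbt* and *Bcat1* again lowest. *Hibch* and *Bcat2* overlapped there, as did *Ivd* and *Pcca*, and *Bckdhb* and *Mccc1*. The estimated reads behind a value ran from 1526 (*Bckdhb*) to 9793 (*Bckdha*) for the 9 tested members, a counting error of at most 2.56%. For *Bcat1* they ran from 25.3 to 39.3, with a counting error of about 19.9% at the lowest. Reads were estimated from the median length of the matched transcripts of a gene. Those of *Bcat1* were 2556 and 7833 bases long, so its reads and counting error depend on this choice.

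*Bcat2* encodes the mitochondrial aminotransferase that starts the route in most tissues, and it was lower in cKO. It lies at chr7:45568967-45589710 (GRCm38.p6, as are all positions here). It measured 147.10 and 136.48 FPKM in Ctrl and 115.65 and 116.57 FPKM in cKO, or 142 ± 7.51 and 116 ± 0.651 FPKM (SD, n = 2 each). Both cKO libraries were below both Ctrl libraries, and the higher Ctrl value was in replicate 1. That library also had the larger sums for muscle, fibroblast progenitor, white adipocyte and macrophage genes and, by smaller margins, for endothelial, epithelial and hepatocyte genes, and the smaller sums for the other lists. The log2 fold change on log2(FPKM + 1) was -0.29 (SE 0.061, 95% confidence interval -0.43 to -0.14, limma adjusted p = 0.0142), and the mean fell by 18.1%. The call was close to the threshold. It was lost without Ctrl replicate 1 (adjusted p = 0.124), cKO replicate 1 (0.0632) or cKO replicate 2 (0.0525), and without the level filter (0.0531), over a range of 0.00646 to 0.124 by limma in 11 alternatives, all of them lower in cKO (log2 fold change -0.34 to -0.23).

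*Bcat1*, the cytosolic aminotransferase, at chr6:144993835-145076157, was low in every library, under the mean of 1 FPKM required for testing. It measured 0.39 and 0.42 FPKM in Ctrl and 0.38 and 0.28 FPKM in cKO. The cKO values were the lower ones, but the nearest Ctrl and cKO libraries differed by less than the counting error at this depth. It did not enter the comparison, and with no level filter limma gave a log2 fold change of -0.08 (adjusted p = 0.433). At so low a level the 1 added in log2(FPKM + 1) shrinks this value, so it cannot be set beside those of the other members. Without it, the cKO mean of 0.330 FPKM was 18.5% below the Ctrl mean of 0.405 FPKM. Per length, the *Bcat1* level was 0.00265 and 0.00308 of the *Bcat2* level in the Ctrl libraries and 0.00329 and 0.00240 in the cKO libraries. The transcript for the mitochondrial enzyme therefore predominated in all 4 libraries, and the ratio overlapped between genotypes (exact permutation p = 1, two-sided).

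*Bckdha* encodes the E1α subunit of BCKDH, the subunit that BCKDK phosphorylates, and it was the most abundant member and the one with the largest log2 difference among the 9 tested. It lies on the minus strand at chr7:25629852-25658782. It measured 187.67 and 186.38 FPKM in Ctrl and 302.09 and 265.91 FPKM in cKO, or 187 ± 0.912 and 284 ± 25.6 FPKM (SD, n = 2 each). Both cKO libraries were above both Ctrl libraries, and the spread within cKO was wider than within Ctrl. The log2 fold change was 0.60 (SE 0.074, 95% confidence interval 0.42 to 0.77, limma adjusted p = 0.00188), a mean 51.9% higher, and the call held in 11 of 11 alternatives (0.51 to 0.69, adjusted p 0.000243 to 0.0411). Of the 1899 exon bases of the gene, 1171 are also exon of *B3gnt8* on the other strand, and no strand marking is described for the libraries, so reads of these genes over the shared bases cannot be told apart. *B3gnt8*, a glycosyltransferase gene, was listed at a mean of 4.31 FPKM, with overlapping groups (log2 fold change 0.14, limma adjusted p = 0.362).

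The E1β and E2 subunits of the same complex did not pass the threshold. *Bckdhb* (E1β, chr9:83925111-84124240) measured 60.01 and 61.66 FPKM in Ctrl and 64.62 and 62.77 FPKM in cKO. *Dbt* (E2, the acyltransferase core of the complex, chr3:116513070-116549981) measured 31.34 and 32.43 FPKM in Ctrl and 34.72 and 34.03 FPKM in cKO. For both genes the cKO libraries were above the Ctrl libraries by a narrow margin. The log2 fold change was 0.07 for *Bckdhb* (95% confidence interval -0.06 to 0.19, limma adjusted p = 0.424) and 0.11 for *Dbt* (-0.03 to 0.24, adjusted p = 0.216). Both intervals lie below the lower bound of 0.42 of the *Bckdha* interval, a comparison of intervals and not a test of the difference.

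Set within each library, the *Bckdha* level was 3.13 and 3.02 times the *Bckdhb* level in Ctrl and 4.67 and 4.24 times in cKO. Both cKO ratios were higher (log2 difference 0.53, exact permutation p = 0.333, two-sided, the smallest that 2 against 2 libraries can give; 0.667 after Benjamini-Hochberg adjustment over the 4 ratios tested). The transcript of the α subunit exceeded that of its β partner in all 4 libraries.

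*Bckdk*, the kinase that inhibits the complex (chr7:127904073-127909664), measured 41.95 and 42.56 FPKM in Ctrl and 47.22 and 45.77 FPKM in cKO. The cKO libraries were the higher ones, by a difference that did not pass the threshold (log2 fold change 0.13, SE 0.055, 95% confidence interval 0.01 to 0.26, limma adjusted p = 0.117). *Ppm1k*, the phosphatase that reactivates the complex, measured 3.71 and 3.84 FPKM in Ctrl and 3.49 and 4.18 FPKM in cKO. Its groups overlapped (log2 fold change 0.01, 95% confidence interval -0.22 to 0.25, limma adjusted p = 0.931), and the sign turned without Ctrl replicate 1 (-0.01) or cKO replicate 2 (-0.089). The *Bckdk* level was 11.3 and 11.1 times that of *Ppm1k* in Ctrl and 13.5 and 10.9 times in cKO, an overlap between genotypes (exact permutation p = 1). Relative to its substrate, the *Bckdk* level was 0.224 and 0.228 of the *Bckdha* level in Ctrl and 0.156 and 0.172 in cKO. Both cKO ratios were lower (log2 difference -0.46, exact permutation p = 0.333, the smallest possible here, 0.667 after adjustment over the 4 ratios).

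**Figure D2:**
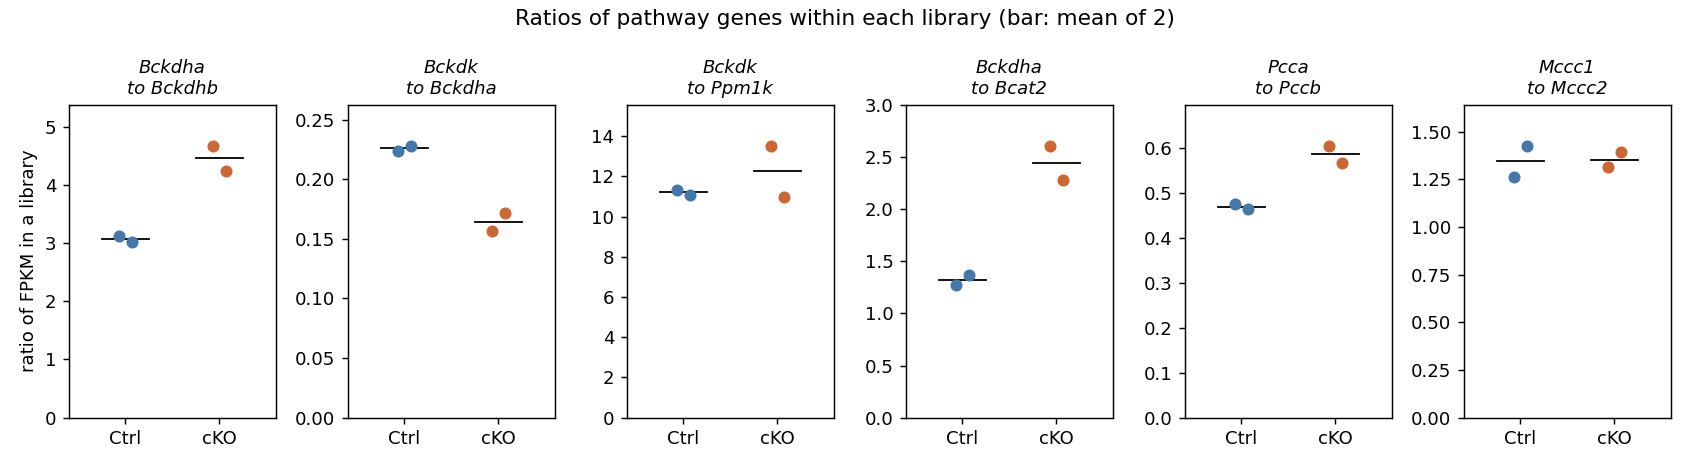
Ratio of the FPKM of paired pathway genes within each of the 2 Ctrl (blue) and 2 cKO (orange) libraries, on linear axes from 0; points are libraries and bars are means of 2. The *Bckdha* to *Bckdhb*, *Bckdha* to *Bcat2* and *Pcca* to *Pccb* ratios sit higher in both cKO libraries and *Bckdk* to *Bckdha* lower, whereas *Bckdk* to *Ppm1k* and *Mccc1* to *Mccc2* overlap.

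*Ivd*, isovaleryl-CoA dehydrogenase, which acts on the leucine-derived acyl-CoA, was lower in cKO by about the same proportion as *Bcat2*. It lies at chr2:118861959-118882909 and measured 130.14 and 118.96 FPKM in Ctrl and 102.00 and 101.53 FPKM in cKO, or 125 ± 7.91 and 102 ± 0.332 FPKM (SD, n = 2 each). Both cKO libraries were below both Ctrl libraries, and the higher Ctrl value was again in replicate 1. The log2 fold change was -0.29 (SE 0.063, 95% confidence interval -0.44 to -0.14, limma adjusted p = 0.0161), and the mean fell by 18.3%. The call was lost without Ctrl replicate 1 (adjusted p = 0.129), cKO replicate 1 (0.0667) or cKO replicate 2 (0.0645), and without the level filter (0.0609), over a limma range of 0.00702 to 0.129 in 11 alternatives, all of them lower in cKO (-0.35 to -0.22).

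*Mccc1*, the biotin-carrying α subunit of methylcrotonyl-CoA carboxylase, the enzyme after IVD (chr3:35956292-36000694), measured 62.85 and 69.36 FPKM in Ctrl and 62.71 and 63.45 FPKM in cKO. Its β subunit gene *Mccc2* measured 49.78 and 48.61 FPKM in Ctrl and 47.80 and 45.53 FPKM in cKO. The *Mccc1* groups overlapped (log2 fold change -0.06, 95% confidence interval -0.22 to 0.09, limma adjusted p = 0.503; 0.0052 without Ctrl replicate 2), and the *Mccc2* change did not pass the threshold (-0.07, adjusted p = 0.376). The ratio of the subunit transcripts, 1.26 and 1.43 in Ctrl and 1.31 and 1.39 in cKO, overlapped as well. This ratio and those of *Pcca* to *Pccb* and *Bckdha* to *Bcat2* were added after the values were seen and are given as descriptions, with no test.

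*Hibch* encodes the hydrolase that frees 3-hydroxyisobutyrate from its CoA ester in the valine branch (chr1:52845038-52920986). It measured 107.53 and 118.99 FPKM in Ctrl and 118.25 and 115.70 FPKM in cKO. The cKO values lay inside the Ctrl range (log2 fold change 0.05, 95% confidence interval -0.11 to 0.20, limma adjusted p = 0.637; -0.025 without Ctrl replicate 1).

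*Pcca*, the biotin-carrying α subunit of propionyl-CoA carboxylase, which takes up the propionyl-CoA from isoleucine and valine, was higher in cKO. It lies at chr14:122484365-122889944 and measured 66.09 and 70.76 FPKM in Ctrl and 102.98 and 93.27 FPKM in cKO, or 68.4 ± 3.30 and 98.1 ± 6.87 FPKM (SD, n = 2 each). The cKO values did not overlap those of Ctrl. The log2 fold change was 0.51 (SE 0.070, 95% confidence interval 0.35 to 0.68, limma adjusted p = 0.00263), a mean 43.4% higher, and the call held in 11 of 11 alternatives (0.44 to 0.58, adjusted p 0.000392 to 0.0481). *Ggact*, which shares 241 of the 5210 *Pcca* exon bases on the other strand, had a log2 fold change of -0.03 (limma adjusted p = 0.755).

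*Pccb*, the partner subunit of *Pcca*, measured 139.27 and 152.64 FPKM in Ctrl and 170.31 and 164.64 FPKM in cKO. The cKO values were higher, but the change did not pass the threshold (log2 fold change 0.20, limma adjusted p = 0.0652), except among genes with a mean of at least 5 FPKM (0.0450). The *Pcca* level was 0.475 and 0.464 of the *Pccb* level in Ctrl and 0.605 and 0.567 in cKO. Across the route, the level of *Bckdha* was 1.28 and 1.37 times that of *Bcat2* in Ctrl and 2.61 and 2.28 times in cKO, a log2 difference of 0.89. *Bcat2* acts at the first step and *Bckdha* at the committed one, and they moved in opposite directions.

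The 250 bases before a RefSeq transcript start of each of the 4 members that passed the threshold are shown because these genes went in opposite directions, so that their upstream sequence can be compared. They are from RefSeq (GRCm38.p6), written 5′ to 3′ on the strand of the gene, and are at chr7:25658762-25659011 (minus strand) for *Bckdha*, chr14:122534078-122534327 (plus) for *Pcca*, chr7:45569903-45570152 (plus) for *Bcat2* and chr2:118861744-118861993 (plus) for *Ivd*. *Pcca* and *Bcat2* each have a further window that is not shown, and for *Pcca* the one shown lies before the transcript that the deposited table lists, inside the span of the gene. Both *Bcat2* windows also lie inside the span of their gene. The *Bckdha* and *Ivd* windows reach a short way into the span of theirs. The *Ivd* CCAAT match nearest the transcript start lies in that part. Capitals mark a match, on either strand, to TGACG (the core of the cAMP response element), AGGTCA (the core of nuclear receptor elements), CCAAT (the NF-Y box) or GGGCGG (the GC box).
Bckdha: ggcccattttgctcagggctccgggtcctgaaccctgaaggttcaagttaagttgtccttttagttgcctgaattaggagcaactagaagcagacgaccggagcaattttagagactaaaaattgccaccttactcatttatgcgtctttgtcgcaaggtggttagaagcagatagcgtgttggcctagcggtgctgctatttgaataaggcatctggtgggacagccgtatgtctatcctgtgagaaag
Pcca: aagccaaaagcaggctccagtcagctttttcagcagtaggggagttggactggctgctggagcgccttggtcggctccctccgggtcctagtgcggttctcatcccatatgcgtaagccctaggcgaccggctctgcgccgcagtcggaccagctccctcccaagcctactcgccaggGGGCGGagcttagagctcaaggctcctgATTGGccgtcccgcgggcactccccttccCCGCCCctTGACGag
Bcat2: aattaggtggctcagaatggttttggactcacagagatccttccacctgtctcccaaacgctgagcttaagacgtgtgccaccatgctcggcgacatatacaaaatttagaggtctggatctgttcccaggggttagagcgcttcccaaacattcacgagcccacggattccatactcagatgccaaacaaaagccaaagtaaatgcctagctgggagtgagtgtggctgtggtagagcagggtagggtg
Ivd: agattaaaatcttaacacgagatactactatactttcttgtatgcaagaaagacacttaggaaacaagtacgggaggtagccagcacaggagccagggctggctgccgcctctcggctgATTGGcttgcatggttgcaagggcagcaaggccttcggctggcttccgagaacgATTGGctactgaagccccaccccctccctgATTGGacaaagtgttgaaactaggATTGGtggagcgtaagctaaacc

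Neither the *Bckdha* window nor either *Bcat2* window holds a match to any motif searched. The *Pcca* window holds 2 GC boxes, 1 CCAAT and 1 TGACG, the only TGACG in a member window, whereas its other window, before the start of the gene span, holds 1 AGGTCA and 1 CCAAT and no GGGCGG or TGACG. The *Ivd* window holds 4 CCAAT matches, all on the strand opposite to the gene. Of 32851 such windows of all genes, 33.8% hold CCAAT (2.79% at least 3 times), 32.7% GGGCGG, 17.8% TGACG and 14% AGGTCA. Among 13 windows of the 9 members found (all but *Dbt*), 7 hold CCAAT, 4 GGGCGG, 3 AGGTCA and 1 TGACG. None holds the full element TGACGTCA, which includes TGACG, the estrogen-related receptor element TCAAGGTCA, which includes AGGTCA, or the NRF1 site, which are found in 1.55%, 0.387% and 3.74% of all windows. A match is a description of letters and not evidence of binding.

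The genes around the 10 members were taken from a list of 35 partners, all of which were tested. Of these, 9 were higher in cKO, 6 were lower and 20 did not pass the threshold, beside 12.0% and 13.8% of all genes. The median log2 fold change of the partners was 0.10, and it was 0.06 without Ctrl replicate 1 and 0.04 without cKO replicate 1 (0.04 to 0.13 with each library left out in turn). Leaving out 1 library lowered the 15 partners past the threshold to 6 (without Ctrl replicate 1), 9 (Ctrl replicate 2), 8 (cKO replicate 1) or 11 (cKO replicate 2), and dropping the level filter gave 8. The calls of *Slc43a1*, *Klf15*, *Got1*, *Got2*, *Gpt* and *Gpt2* held in every alternative, whereas the 9 others were lost in at least 1.

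**Figure D3:**
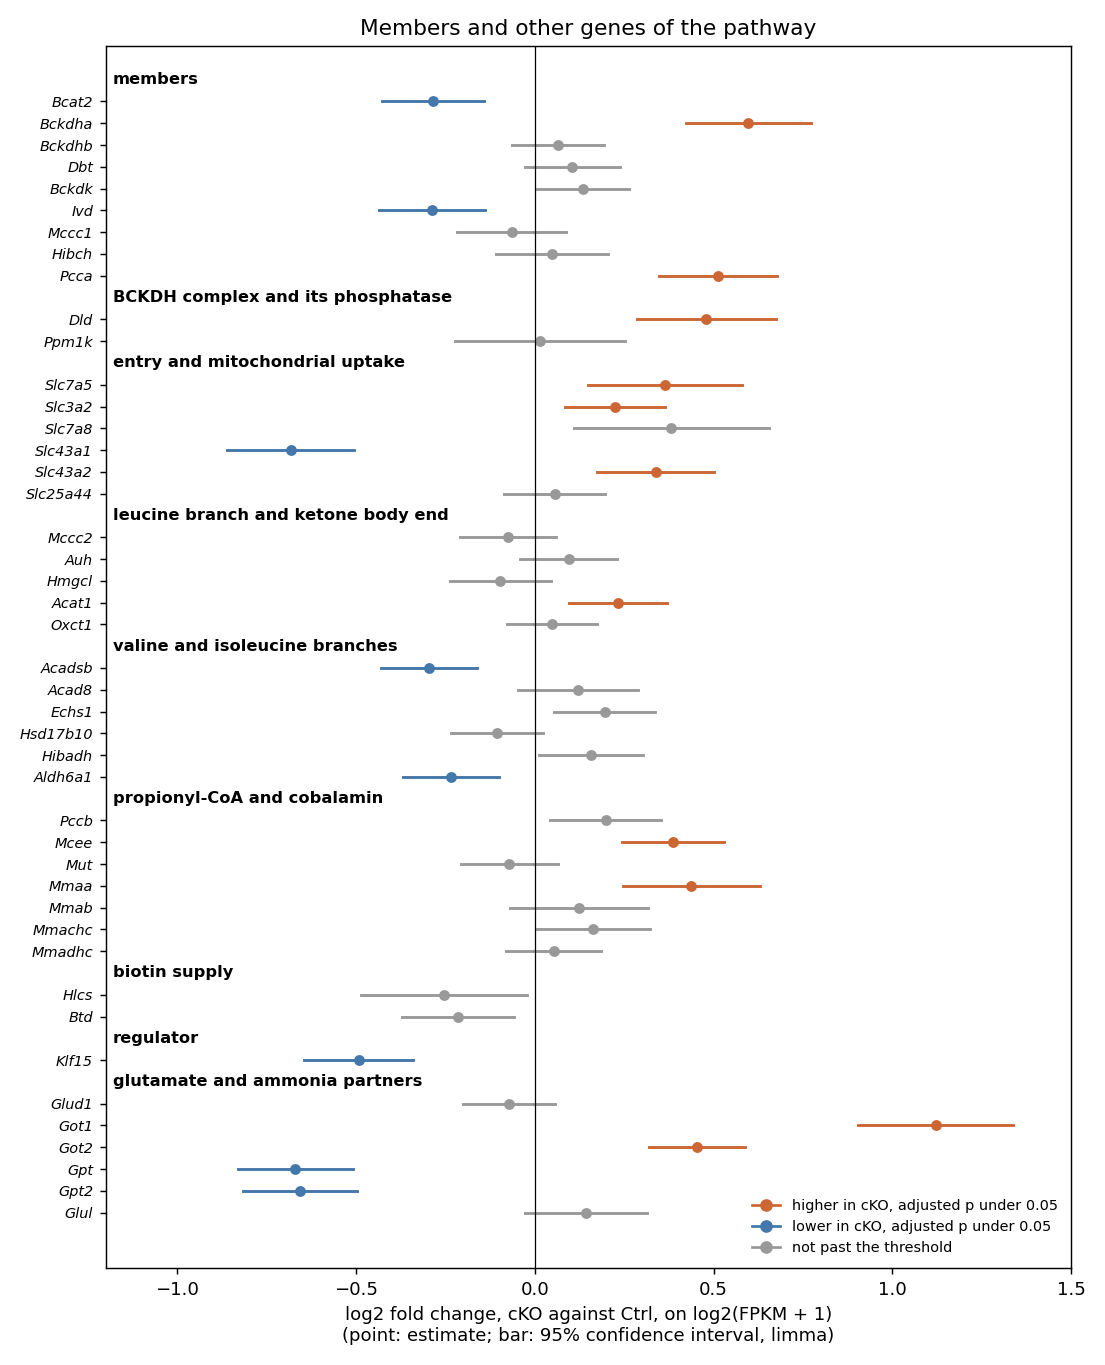
Log2 fold change (cKO against Ctrl, on log2(FPKM + 1)) of the 9 tested members and 35 partners, grouped by role; points are limma estimates and bars 95% confidence intervals, coloured by direction where the adjusted p is under 0.05. Genes of both colours occur among the members and the transport and glutamate groups, and *Got1* at 1.12 is the farthest from 0.

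Of the other BCKDH genes, *Dld*, the E3 subunit shared with other dehydrogenase complexes, measured 157.08 and 180.73 FPKM in Ctrl and 244.46 and 226.72 FPKM in cKO. The cKO values were the higher ones (log2 fold change 0.48, SE 0.082, limma adjusted p = 0.00627). The call was lost without Ctrl replicate 1 (adjusted p = 0.0709) and without the level filter (0.0566). Among the transporters, *Slc43a1*, which carries large neutral amino acids across the plasma membrane, measured 13.82 and 13.01 FPKM in Ctrl and 7.61 and 8.36 FPKM in cKO. It was lower in both cKO libraries (-0.68, limma adjusted p = 0.00131), while *Slc7a5* and *Slc3a2*, the light and heavy chains of another such transporter, and *Slc43a2* were higher. The calls of *Slc7a5*, *Slc3a2* and *Slc43a2* were lost without the level filter. Those of *Slc7a5* and *Slc3a2* were also lost whichever library was left out. *Slc25a44*, the mitochondrial carrier of branched-chain amino acids, measured 39.29 and 39.69 FPKM in Ctrl and 42.59 and 39.61 FPKM in cKO, with overlapping groups (0.06, limma adjusted p = 0.543).

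In the branches, 1 of 5 leucine and ketone body genes (*Acat1*) was higher and none lower, and 2 of 6 valine and isoleucine genes (*Acadsb* and *Aldh6a1*) were lower and none higher. Of the 7 propionyl-CoA and cobalamin genes 2 (*Mcee* and *Mmaa*) were higher and none lower. Among all genes tested 12.0% were higher and 13.8% lower, so no direction of a branch is read from counts this small. The calls of *Acat1*, *Aldh6a1* and *Mmaa* were lost without the level filter. Those of *Acadsb* and *Mcee* held in that fit but not in every alternative. The *Acat1* and *Aldh6a1* calls were also lost whichever library was left out. Both biotin supply genes, *Hlcs* and *Btd*, missed the threshold, but *Btd* (log2 fold change -0.22, limma adjusted p = 0.0527) passed it among genes with a mean of at least 5 FPKM (0.0334) and under quantile normalization (0.0494). *Klf15*, a transcription factor known to regulate amino acid catabolism genes, was lower (log2 fold change -0.49, limma adjusted p = 0.00232). *Slc7a8* and *Echs1* also missed the threshold narrowly and passed it among genes with a mean of at least 5 FPKM. The called genes are named because they make up the counts, after the values were seen, and not for the size of their change. The changes of *Klf15* and *Btd* were chosen after their values were seen.

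The aminotransferases that pass on the amino group of glutamate, the product of the BCAT reaction, split by substrate. *Got1*, the cytosolic aspartate aminotransferase, measured 8.87 and 10.41 FPKM in Ctrl and 23.36 and 20.90 FPKM in cKO, a mean 130% higher (log2 fold change 1.12, limma adjusted p = 0.00048). *Got2*, its mitochondrial counterpart, was higher as well (0.45, adjusted p = 0.00196). The alanine aminotransferases were lower. *Gpt* measured 114.25 and 102.49 FPKM in Ctrl and 66.50 and 68.82 FPKM in cKO (-0.67, limma adjusted p = 0.000992), and *Gpt2* measured 55.83 and 53.92 FPKM in Ctrl and 32.69 and 36.28 FPKM in cKO (-0.66, limma adjusted p = 0.00102). For all 4 genes the genotypes did not overlap, which was also the case for 66.5% of all genes tested. *Glud1* and *Glul* did not pass the threshold.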

How the data were processed

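Polyadenylated RNA of 4 ingWAT libraries (2 Ctrl, 2 cKO) was read by the authors as single-end sequences, and the authors deposited FPKM per gene and library. Per the submitters' processing notes HISAT2 2.0.4, RSEM 1.2.12 and mm10 were used, and no scaling between libraries is stated. Groups came from the sample titles. Because FPKM is not a count, log2(FPKM + 1) of the 12658 genes with a mean of at least 1 FPKM was compared with limma 3.58.1 in R 4.3.3 (eBayes with trend, two-sided, Benjamini-Hochberg, adjusted p under 0.05). In simulated data of these 12658 genes, 98 of 100 genes changed by 1 on the log2 scale, 81 of 100 changed by 0.5 and 3 of 12458 unchanged genes were called. Only 200 genes were changed there, and the noise was independent, with a spread set by the mean level. Far more genes were called in the real libraries, so these rates may not carry over to them. Ratios within libraries were compared by exact permutation.

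Whole reads were not recovered beyond short RNAs, because FPKM steps depend on the length used for each gene, so no count test was run. Depth came from 306 short RNA genes of at most 400 bases, where steps of up to 6 reads were matched within 0.1 and 82.4% to 86.1% of values came out whole. On 4 simulated libraries the error was at most 1.67%. Those libraries were made with the length rule that the estimate assumes, so this cannot show whether the real values follow that rule. The counting errors given cover counting only.

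The members, the 35 partners and the marker lists were chosen with earlier results of these data known, and 1 further partner is not reported here. All members were named, and values were given for partners that passed with an absolute log2 fold change of at least 0.5 and for *Dld*, *Ppm1k*, *Mccc2*, *Pccb* and *Slc25a44*. Outside this rule, the changes of *Klf15*, *Got2* and *Btd* are given, chosen after their values were seen. Alternatives were a pseudocount of 0.1, no filter, a minimum of 5 FPKM, median-of-ratios scaling, quantile normalization, a replicate block, eBayes without trend and leaving out each library. Quantile normalization and leaving out libraries were added for the ratios after seeing the data.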

Additional observations from a re-analysis of the deposited data

How the results depend on the processing

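The directions of *Bcat2*, *Bckdha*, *Bckdhb*, *Dbt*, *Bckdk*, *Ivd*, *Pcca* and *Slc22a3* held in all 11 alternatives. Without the level filter, 2 members, 8 partners and 1762 of all genes passed the threshold, against 4, 15 and 3269. Leaving out each library in turn gave 2 to 4 members, 6 to 11 partners and 877 to 2429 genes, with the lone library of a genotype assumed to vary like the others. In these fits the sign turned within the range for *Mccc1* (-0.13 to 0.0052), *Hibch* (-0.025 to 0.12) and *Ppm1k* (-0.089 to 0.12), and for the log2 ratio differences of *Bcat1* to *Bcat2* (-0.25 to 0.20), *Bckdk* to *Ppm1k* (-0.032 to 0.27) and *Mccc1* to *Mccc2* (-0.078 to 0.10). Under quantile normalization *Glul* was at -0.0075, *Bcat1* to *Bcat2* at 0.15, *Mccc1* to *Mccc2* at -0.022 and *Bckdk* to *Bckdha* at -0.36. The cause of these shifts was not tested. The deviations of replicate 1 from its group mean were almost uncorrelated between Ctrl and cKO (r = 0.0148 over 12658 genes). That cannot show whether libraries of the same replicate number share a litter or a batch. A fit with the replicate block called 4 members, 16 partners and 3383 genes. With 2 libraries per genotype, depth limits *Bcat1* most.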
